A study of Mus musculus with 12 samples.

Results

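The expression of 10 genes of base excision repair was read in tissues of Sirt6-/- mice, each set against the matching wild type tissue. The genes were taken from a list by name, with no threshold on their values: the DNA glycosylases Ung, Ogg1, Neil1 and Mutyh, the AP endonuclease Apex1, the polymerase Polb, the strand break factors Parp1 and Xrcc1, and the ligases Lig1 and Lig3. All 10 had at least 1 probe, 18 in all, among 14654 named genes on the array. Each of 12 two-colour arrays carried amplified RNA of a Sirt6-/- tissue labelled with Cy5 and of a wild type tissue labelled with Cy3. The arrays form 6 groups of 2, namely Sirt6-/- mice aged 21 days (liver, spleen) and Sirt6-/- mice aged 29 days (liver, skin, spleen, thymus). On the 21-day arrays 3 wild type littermates were pooled for the Cy3 channel. The sources used here do not give the makeup of the wild type RNA at 29 days, nor the strain, the sex, the number of knockout animals or the design of the allele.

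Base excision repair removes single damaged or wrong bases. A glycosylase cuts the base from its sugar, the AP endonuclease nicks the strand at the empty site, a polymerase fills the gap, and a ligase closes it, with PARP1 and XRCC1 acting where the strand is broken. In the short-patch route polymerase beta and ligase III, bound to XRCC1, finish the repair, while the long-patch route uses replication proteins and ligase I. SIRT6 is a chromatin-bound deacylase, and mouse cells without it are known for genome instability and for sensitivity to damage that this pathway repairs.

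Each value below is the log2 of knockout RNA divided by wild type RNA on one array, after the array was centred on its median. Values under 0 stand for less RNA of the gene in knockout tissue. Pairs of values follow the replicate numbers, which are 2 and 11 in 21-day liver, 6 and 11 in 21-day spleen, and 1 and 2 in each tissue at 29 days. Since the dyes were never exchanged, a preference of a probe for one dye is not separated from its ratio. Because the files hold ratios and not levels, the labelled tissues could not be checked by the level of their markers, and fewer cells of a type cannot be told apart from less RNA per cell. The arrays differed in spread, with an SD of the deposited ratios of 0.72 to 1.14 at 21 days and 0.31 to 0.66 at 29 days. The widest was replicate 6 of 21-day spleen, which lacked 10155 values, and the widest at 29 days was replicate 2 of spleen. The 2 arrays of a group correlated over all probes with r between 0.12 and 0.46, except in 29-day spleen, where r was -0.28. Sirt6 itself was at -0.59 and -0.68 in 21-day liver, -2.29 and -0.070 in 21-day spleen, -0.16 and -0.30 in 29-day liver, -0.21 and -0.058 in skin, 0.20 and 0.14 in 29-day spleen, and -0.86 and -0.52 in thymus. It did not pass the test in any group (lowest limma adjusted p = 0.103, in 21-day spleen), lay above 0 on both arrays labelled 29-day spleen, and its 2 probes gave 0.77 and -0.91 on replicate 11 of 21-day spleen. The sources used here do not say whether its probes lie in the deleted part, and the genotype is taken from the labels alone. The Y-linked gene Eif2s3y lay between -7.996 and -2.87 on the 4 arrays at 21 days and between 3.35 and 5.08 on the replicate 2 arrays at 29 days, against -0.13 to 0.37 on the replicate 1 arrays at 29 days. The knockout and wild type channels therefore differ in the level of a Y-linked gene on 8 of the 12 arrays, and the part of sex in the values below was not tested.

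No base excision repair gene of the 10 passed the limma test in any tissue at either age. Of 57 tests of a gene in a group, 0 had an adjusted p under 0.05, 5 (8.77%) had an unadjusted p under 0.05, against 9.36% of all tests of a feature in these groups, and the lowest adjusted p was 0.177. In 42 of the 57 tests the 95% interval of the group mean lay within a 2-fold difference in either direction. The model takes 1 spread per gene for all 6 groups, so intervals of groups with wider arrays can be too narrow. In 21-day spleen Ung had an SD of 0.68 between its arrays but an SE of 0.22, as in its other groups. The largest ratios belonged to Lig1, which was lowest of the members on 7 of the 12 arrays, and to Parp1 on single spleen arrays. Ogg1 spanned the least, 0.55 on the log2 scale over 11 arrays, while Parp1 spanned 2.93 and Lig1 2.76 over 12.

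**Figure D1:**
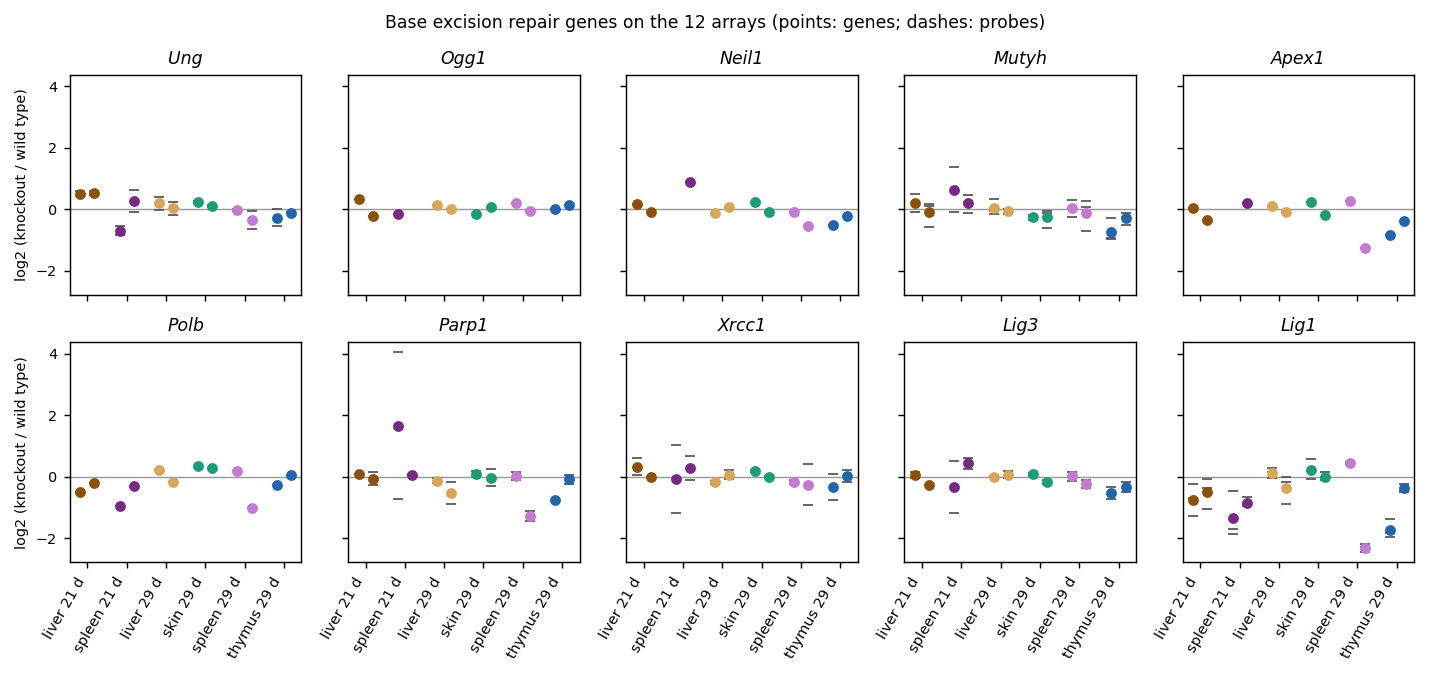
Log2 ratio of knockout over wild type for each of the 10 genes (vertical axis) in the 6 groups (horizontal axis), with 1 point per array and 1 dash per probe. Ogg1 stays between -0.22 and 0.33, Lig1 reaches -2.30 on replicate 2 of 29-day spleen, and the 2 probes of Parp1 lie far apart on replicate 6 of 21-day spleen.

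Among the glycosylases, Ung, which removes uracil from DNA, gave closely matched values in 21-day liver. Ung (chromosome 5, 114130366 to 114139321, assembly GRCm38.p6) was at 0.52 and 0.53 in 21-day liver, at -0.69 and 0.28 in 21-day spleen, and at 0.19 and 0.033 in 29-day liver. In 29-day skin it was at 0.24 and 0.11, in 29-day spleen at -0.007 and -0.34, and in 29-day thymus at -0.27 and -0.10. The arrays of 21-day liver were thus the highest of the 12. The mean there was 0.53 (SE 0.22, n = 2, limma adjusted p = 0.231), a ratio of 1.44-fold that did not pass the test.

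Ogg1, the glycosylase for oxidized guanine opposite cytosine (chromosome 6, 113326972 to 113334877), was read by 1 probe. It was at 0.33 and -0.22 in 21-day liver, at -0.13 on replicate 6 of 21-day spleen with no value on replicate 11, and at 0.13 and 0.011 in 29-day liver. It was at -0.15 and 0.090 in skin, 0.22 and -0.060 in spleen, and 0.012 and 0.14 in thymus at 29 days. The values lay on both sides of 0 within most tissues, and the group means ran from -0.031 to 0.078 with an SE of 0.19 each. The 95% interval lay within 2-fold in each of the 5 groups tested.

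Mutyh, which removes adenine placed opposite oxidized guanine (chromosome 4, 116807636 to 116819439), had the lowest glycosylase mean, in thymus. It was at 0.21 and -0.087 in 21-day liver, 0.65 and 0.20 in 21-day spleen, and 0.041 and -0.052 in 29-day liver. In 29-day skin both arrays gave -0.25, in 29-day spleen it was at 0.037 and -0.12, and in 29-day thymus at -0.73 and -0.28. Both thymus arrays and both skin arrays lay below 0, and both arrays of 21-day spleen above it. The thymus mean of -0.51 (SE 0.19) had the smallest unadjusted p of all members, 0.0217, and a limma adjusted p of 0.908. The 21-day spleen mean of 0.42 (SE 0.19) had an adjusted p of 0.177. Its 3 probes disagreed there. They were at 1.39 and -0.096 on replicate 6, where the third lacked a value, and at 0.48, -0.12 and 0.23 on replicate 11.

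Neil1, a glycosylase for oxidized pyrimidines (chromosome 9, 57142788 to 57148688), was at 0.18 and -0.079 in 21-day liver and at 0.91 on replicate 11 of 21-day spleen, with no value on replicate 6. It was at -0.11 and 0.081 in liver, 0.25 and -0.069 in skin, -0.092 and -0.53 in spleen, and -0.49 and -0.23 in thymus at 29 days. The highest value thus stood on a lone array, and in spleen and thymus at 29 days both arrays lay below 0. The thymus mean was -0.36 (SE 0.19, limma adjusted p = 0.908).

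Apex1, the main AP endonuclease (chromosome 14, 50924949 to 50927188), was close to 0 outside spleen and thymus. Its values were 0.048 and -0.35 in 21-day liver, 0.21 on replicate 11 of 21-day spleen with none on replicate 6, 0.13 and -0.099 for liver at 29 days, and 0.24 and -0.18 for skin. In 29-day spleen it was at 0.27 and -1.26, and in 29-day thymus at -0.84 and -0.36. The arrays of spleen lay on opposite sides of 0 and those of thymus both below it. The means were -0.49 (SE 0.33, limma adjusted p = 1.0) in spleen and -0.60 (SE 0.33, adjusted p = 0.908) in thymus.

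Polb, the gap-filling polymerase of the short-patch route (chromosome 8, 22628119 to 22653464), was below 0 on all 4 arrays at 21 days. It was at -0.48 and -0.21 in 21-day liver, at -0.95 and -0.31 in 21-day spleen, and at 0.23 and -0.15 in 29-day liver. It was at 0.34 and 0.28 in skin, 0.19 and -1.02 in spleen and -0.26 and 0.049 in thymus at 29 days. Skin alone had both arrays above 0. The lowest mean, -0.63 (SE 0.28) in 21-day spleen, had a limma adjusted p of 0.18, and the skin mean was 0.31 (SE 0.28, adjusted p = 1.0).

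Parp1, which senses strand breaks and builds poly(ADP-ribose) (chromosome 1, 180568891 to 180600999), had its extremes on the widest spleen array of each age. It was at 0.11 and -0.056 in 21-day liver, 1.67 and 0.066 in 21-day spleen, and -0.12 and -0.52 in 29-day liver. It was at 0.10 and -0.025 in skin, 0.031 and -1.26 in spleen, and -0.76 and -0.080 in thymus at 29 days. The value of 1.67 on replicate 6 of 21-day spleen was the mean of probes at 4.06 and -0.73, which were at 0.11 and 0.023 on replicate 11. The 2 probes therefore disagreed on direction on that array, and the group mean of 0.87 (SE 0.39, limma adjusted p = 0.183) rests on 1 of them. Without replicate 6 the 21-day spleen value was 0.066.

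Xrcc1, the scaffold that holds ligase III and polymerase beta at a break (chromosome 7, 24546699 to 24573438), stayed near 0 as the mean of 2 probes that disagreed on some arrays. It was at 0.34 and 0.001 in 21-day liver, -0.065 and 0.29 in 21-day spleen, and -0.18 and 0.068 in 29-day liver. It was at 0.20 and 0.012 in skin, -0.16 and -0.25 in spleen, and -0.32 and 0.037 in thymus at 29 days. Both arrays lay below 0 in 29-day spleen and above 0 in 21-day liver and 29-day skin, all within 0.34 of 0. The group means ran from -0.20 to 0.17 with an SE of 0.18, and each of the 6 intervals lay within 2-fold. The probes, however, were at 1.04 and -1.17 on replicate 6 of 21-day spleen, at 0.42 and -0.92 on replicate 2 of 29-day spleen, and at 0.096 and -0.74 on replicate 1 of thymus, so the narrow span is that of their mean.

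Lig3, the ligase of the short-patch route (chromosome 11, 82781109 to 82804274), lay near 0 in liver and skin. It was at 0.052 and -0.25 in 21-day liver, -0.33 and 0.45 in 21-day spleen, and 0.002 and 0.074 in 29-day liver. It was at 0.082 and -0.16 in skin, 0.017 and -0.22 in spleen, and -0.53 and -0.34 in thymus at 29 days. Thymus was the only group with both arrays below 0, with a mean of -0.43 (SE 0.21, limma adjusted p = 0.908).

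Lig1, the ligase of the long-patch route and of DNA replication (chromosome 7, 13277175 to 13311426), gave the lowest group means of the members. It was at -0.73 and -0.50 in 21-day liver, -1.34 and -0.84 in 21-day spleen, and 0.14 and -0.34 in 29-day liver. It was at 0.24 and 0.008 in skin, 0.46 and -2.30 in spleen, and -1.72 and -0.38 in thymus at 29 days. All 4 arrays at 21 days and both thymus arrays lay below 0, and the 29-day spleen arrays lay on opposite sides. The means were -1.09 (SE 0.53, limma adjusted p = 0.217) in 21-day spleen, -1.05 (adjusted p = 0.908) in thymus and -0.62 (adjusted p = 0.564) in 21-day liver. The 3 probes of Lig1 had the same sign as each other on all the arrays just named, and they lay between -2.46 and -2.17 on replicate 2 of 29-day spleen. The means have wide intervals: in 21-day spleen it ran from -2.28 to 0.098.

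**Figure D2:**
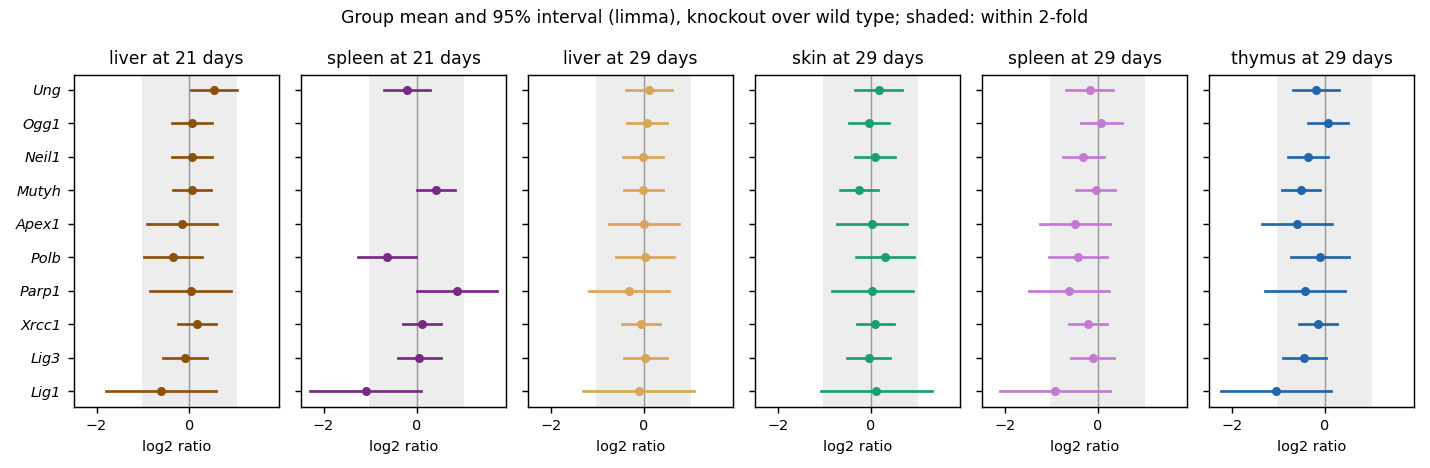
Group mean log2 ratio of knockout over wild type (horizontal axis) with its 95% interval from limma for the 10 genes (rows) in the 6 groups (panels), and the band within 2-fold shaded. In 42 of 57 cases the interval lies inside the band, and those of Lig1 leave it in each of the 6 groups.

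The promoters of the member with the lowest means, Lig1, and of the member with the narrowest span, Ogg1, are shown for comparison. Each window runs from 250 bases before to 50 bases after a start of the gene in RefSeq on GRCm38.p6, in the direction of the gene, and capitals mark the GC box letters GGGCGG or their reverse complement. The window of Lig1, which of its 3 windows holds the most GC boxes, is chr7:13278576-13278875 and that of Ogg1 is chr6:113326726-113327025, both on the plus strand.
Lig1: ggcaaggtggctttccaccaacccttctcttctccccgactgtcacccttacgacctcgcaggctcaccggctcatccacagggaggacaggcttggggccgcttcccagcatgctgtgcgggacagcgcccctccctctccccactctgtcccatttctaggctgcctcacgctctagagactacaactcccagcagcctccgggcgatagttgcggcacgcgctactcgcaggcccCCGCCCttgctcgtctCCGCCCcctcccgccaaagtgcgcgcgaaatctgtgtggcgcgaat
Ogg1: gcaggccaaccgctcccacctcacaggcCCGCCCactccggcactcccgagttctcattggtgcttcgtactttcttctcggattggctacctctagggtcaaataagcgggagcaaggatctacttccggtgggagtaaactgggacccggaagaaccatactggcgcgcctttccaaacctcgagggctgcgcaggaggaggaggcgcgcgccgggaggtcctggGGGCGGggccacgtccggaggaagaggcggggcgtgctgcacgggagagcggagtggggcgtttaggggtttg
Both windows hold 2 GC boxes, which begin at positions -12 and 5 from the start in Lig1 and at positions -222 and -23 in Ogg1. RefSeq windows were matched for 9 of the 10 members, 12 windows in all, and not for Polb. Searched on both strands, GGGCGG was found in 8 of the 12 windows, from 7 members, and in 35.7% of 32851 windows of all genes. The CCAAT box letters CCAAT were in 5 windows of 4 members, Mutyh, Ogg1, Xrcc1 and Apex1, and in 37.4% of all windows. The TATA box letters TATAAA were in the window of Neil1 and in 13.6% of all windows. The E2F letters TTTCCCGC and TTTGGCGC were in 0 of the 12 windows, against 1.07% and 0.514% of all windows, and the palindromic NRF1 motif in 0, against 0.971%. Only these exact letters were searched. At such low shares, 0 matches in 12 windows do not show that other forms of these sites are absent. The printed window of Lig1 holds the letters gcgcgaaa, close to the reverse complement of TTTGGCGC. That form was not searched, so the count of 0 for E2F does not mean that Lig1 lacks such a site. Matches of different motifs could overlap, and a match is a description of these letters alone.

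Taken by tissue, the 10 genes had a median near 0 in liver and skin and below 0 in thymus when each array was centred on its median. In 21-day liver 0 of 10 members passed the test, against 2.54% of the 29093 features tested, and their median ratio was 0.039, beside -0.043 for all features. In 21-day spleen 0 of 7 members with values on both arrays passed, against 4.13% of 23146 features, with a median of 0.060 beside -0.028. These groups had the most calls among all features, and even there the share called was low. In 29-day liver 0 of 10 passed (0.104% of all features) with a median of 0.0044, and in 29-day skin 0 of 10 (0.0389%) with a median of 0.064. In 29-day spleen 0 of 10 passed (0.0% of all features, although 1015 of 30783 had an unadjusted p under 0.05) with a median of -0.26. In 29-day thymus 0 of 10 passed (0.013%) with a median of -0.39, beside 0.018 for all features. The sign of the members' median turned with the centring in skin, 29-day spleen and 21-day liver. Centring on ribosomal and respiratory genes moved the members' median to -0.22 in skin, with 9 of 10 members below 0 in place of 3, and to 0.17 in 29-day spleen, with 3 below 0 in place of 9. The medians of all features moved with it, to -0.27 in skin and 0.42 in 29-day spleen. In 21-day liver the members' median became -0.067 with that centring and -0.13 with none, while in thymus it was -0.32 and -0.34, with 9 of 10 below 0 under each.

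The thymus arrays carried the most uniform direction. Both arrays lay below 0 for 7 of the 10 members in thymus, against 33.7% of all features, and both lay above 0 for Ogg1 alone, against 38.5%. In 29-day spleen both arrays lay below 0 for 3 members (17.7% of all features) and above 0 for 0 members (19.2%). For 21-day liver the counts were 2 below (33.6%) and 2 above (31.9%), and in 21-day spleen 2 below (29.1%) and 2 above (25.3%). In 29-day liver they were 1 below (22.9%) and 3 above (23.9%), and in 29-day skin 1 below (26.9%) and 4 above (28.2%). In liver, skin and 21-day spleen the members' directions were thus mixed. In 29-day spleen 9 of the 10 group means lay below 0, but both arrays did so for only 3 members. Medians of some lists of cell type markers were also away from 0 on the thymus arrays. The 5 muscle markers had a median of -0.78, with 3 at an unadjusted p under 0.05 and none called. Myl7 at -2.19 and -3.09 and Myh6 at -1.60 and -2.24 were lowest. Acta1 at -0.135 and -0.241 lay nearer 0, and Tnnt3 at 0.065 and 0.121 lay above it. The 7 B cell markers had a median of 0.36, but their medians by array were 0.502 on replicate 1 and -0.004 on replicate 2. The 9 T cell and thymocyte markers had a median of -0.25, with -0.451 on replicate 1 and -0.017 on replicate 2. Their means ran from -0.65 for Dntt to 0.34 for Rag1. The 15 markers of proliferating cells, described below, had a median of -0.97, with -1.69 and -0.32 by array. None of either list was called. The part of all these markers in the members' values was not tested.

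The spleen direction at 29 days came from 1 array. All 10 members were below 0 on replicate 2 of 29-day spleen, with a median of -0.43, and 3 of 10 were on replicate 1, with a median of 0.034. On replicate 2 a set of 135 ribosomal protein and respiratory chain genes also had a median of -1.10, against 0.25 on replicate 1, so transcripts of broad use lay lower there too. The medians of cell type markers on replicates 2 and 1 of 29-day spleen were -3.01 and 0.81 for 5 erythroid genes, -1.48 and 0.88 for 5 neutrophil genes, and -1.49 and -0.81 for 7 hepatocyte genes. The part of these genes in the members' values was not tested. In thymus 9 members were below 0 on replicate 1 and 7 on replicate 2, and the ribosomal and respiratory genes had medians of -0.18 and 0.032. Without replicate 2 the 29-day spleen values were 0.46 for Lig1, 0.27 for Apex1, 0.19 for Polb and 0.031 for Parp1, against -0.92, -0.49, -0.41 and -0.62 with both arrays.

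The knockout effect on the members was not shown to differ between tissues or ages. In the moderated F test among liver, skin, spleen and thymus at 29 days, 0 of 10 members passed (0.00979% of all features), although the highest and lowest group means of Lig1 lay 1.17 apart. For the mean of the 4 tissues 0 of 10 passed (0.049% of all features), with a median of -0.14. Mutyh came nearest, at -0.20 (SE 0.093, limma adjusted p = 0.608). For the difference of 29 minus 21 days, 0 of 10 members passed in liver (0.0138% of all features) and 0 of 7 in spleen (0.0866%). Parp1 in spleen had the largest such difference, -1.48 (SE 0.55, adjusted p = 0.375). It draws on the probe at 4.06. Without replicate 6 of 21-day spleen it was -0.68, and without replicate 11 it was -2.28. Without replicate 1 of 29-day spleen it was -2.13, and without replicate 2 it was -0.84. Over all alternatives it ran from -2.28 to -0.0345. Lig1 in liver had the highest difference above 0, 0.51 (SE 0.75, adjusted p = 0.898). The age of the animals and the set of arrays cannot be told apart here, and the spread differs between the ages. The makeup of the wild type RNA at 29 days is not given. Eif2s3y lay between -7.996 and -2.87 on the arrays at 21 days and between -0.13 and 5.08 on those at 29 days. A difference of sex between the channels therefore cannot be told apart from age either.

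The groups with values on both arrays, 5 for Ogg1, Neil1 and Apex1 and 6 for the other members, were ordered by mean for each gene. The arrays of neighbouring groups did not overlap in 8 of 47 pairs (17.0%), near the 15.7% of pairs over all features with 12 values. Thymus stood lowest for Neil1, Mutyh, Apex1 and Lig3, 29-day spleen for Xrcc1 and Parp1, 21-day spleen for Ung, Polb and Lig1, and 29-day skin for Ogg1. Ung in 21-day liver lay clear of its neighbour, 29-day skin.

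Lig1 varied with the ratios of proliferation markers from array to array. Of 17 such markers, which include Mki67, Top2a and the Mcm genes of the replicative helicase, 15 were on the array. While 0.0% to 4.13% of all features were called per group, none of these markers passed the test in any group. Their median per array was -0.54 and -0.79 in 21-day liver, -1.34 and -0.91 in 21-day spleen, and 0.088 and -0.041 in 29-day liver. It was -0.15 and -0.12 in skin, 0.43 and -1.93 in spleen, and -1.69 and -0.32 in thymus at 29 days. The same 7 arrays that had the lowest Lig1 values thus had the lowest marker medians. Across the 12 arrays the Pearson correlation of Lig1 with this median was 0.968 and Spearman's rho 0.944, and r was 0.929 without the 2 arrays farthest from the median (replicate 2 of 29-day spleen and replicate 1 of thymus). Within the 8 arrays at 29 days r was 0.977. With the median of the 135 ribosomal and respiratory genes, Lig1 had an r of 0.828 over the 12 arrays and 0.883 at 29 days. Over all arrays a high r was thus not limited to the markers, but this r was 0.638 without the 2 arrays farthest from that median. Those were replicate 2 of 29-day spleen and replicate 6 of 21-day spleen. The arrays of a group share tissue and age, so these correlations are descriptions.

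**Figure D3:**
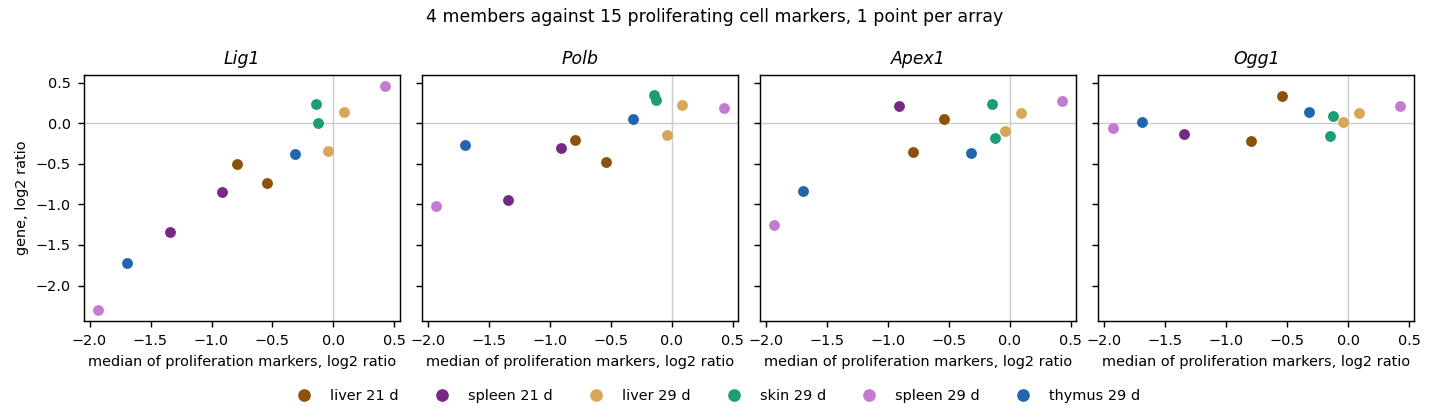
Log2 ratio of Lig1, Polb, Apex1 and Ogg1 (vertical axes) against the median log2 ratio of 15 proliferation markers on the same array (horizontal axes), with 1 point per array coloured by group. Lig1 rises with the markers over the whole range, and Ogg1 stays between -0.22 and 0.33.

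The other members described had lower correlations with those markers. For Polb r was 0.817, rho 0.79, and 0.839 without the 2 farthest arrays. Its r with the ribosomal and respiratory genes was 0.851, or 0.971 at 29 days, but 0.464 without the 2 arrays farthest from their median. For Apex1 r with the markers was 0.828 over 11 arrays, but 0.318 without replicate 2 of 29-day spleen and replicate 1 of thymus. Its relation to the markers thus rests on those 2 arrays. For Ogg1 r was 0.428 over 11 arrays. For Parp1 it was 0.167 over 12 arrays, 0.879 over the 8 arrays at 29 days and -0.675 without the 2 farthest arrays, so that its sign depends on the arrays taken. On those 8 arrays r was also 0.951 for Apex1, 0.839 for Polb, 0.833 for Ung, 0.809 for Neil1 and 0.716 for Lig3. It was 0.597 for Mutyh, 0.576 for Xrcc1 and 0.482 for Ogg1. The 8 arrays include replicate 2 of 29-day spleen and replicate 1 of thymus. Among the members themselves the highest correlations were 0.893 between Neil1 and Lig3, 0.881 between Parp1 and Apex1, and 0.875 between Polb and Lig1, and the lowest was -0.428 between Mutyh and Polb. Pairs with Neil1 or Apex1 leave out replicate 6 of 21-day spleen, where these lacked a value. All pairs include replicate 2 of 29-day spleen, whose part in them was not tested.

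Of the rest of the pathway, 27 of 30 further genes were on the array, and 2 passed the test, both lower in knockout tissue at 21 days. They are 3.85% of the further genes tested in 21-day liver and 4.76% of those in 21-day spleen, near the 2.54% and 4.13% of all features, and 82.4% and 72.6% of all calls in these groups were lower too. Nthl1, a glycosylase for oxidized pyrimidines read by 1 probe, was at -2.22 and -1.64 in 21-day liver, a mean of -1.93 (SE 0.25, limma adjusted p = 0.00915), and was the only gene of the pathway called in liver. It was at -0.029 and -0.11 in 29-day liver, and the difference of 29 minus 21 days, 1.86, did not pass (adjusted p = 0.184). In 21-day spleen it had a value on replicate 11 alone, -1.29, and at 29 days it was at 0.36 and -0.054 in skin, 0.059 and -0.84 in spleen and -0.55 and -0.28 in thymus. Nthl1 thus stood far below 0 on each of the 3 arrays at 21 days with a value. Its call was lost with arrays of 21 days alone (adjusted p = 0.465), after quantile normalization (-1.25, adjusted p = 0.0586) and without replicate 2 of 21-day liver (-1.64, adjusted p = 0.0541).

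Apex2, a second AP endonuclease, was the gene called in 21-day spleen. It was at -1.90 and -0.95 there, a mean of -1.42 (SE 0.24, limma adjusted p = 0.0198), but 1 of its 2 probes lacked a value on replicate 6. In the other groups the mean of the probes lay between -0.38 and 0.16, but they disagreed on some arrays, at 0.37 and -1.14 on replicate 2 of 29-day spleen and at 0.24 and -0.97 on replicate 1 of thymus. The probe with a value on replicate 6 of 21-day spleen was the lower one of these. The call was lost with arrays of 21 days alone (adjusted p = 0.33), with array weights (0.658), after scaling (-0.72, 0.316), quantile normalization (-0.82, 0.268) or centring on ribosomal and respiratory genes (-0.98, 0.16), and without replicate 6 (-0.95, 0.0621) or either skin array (0.0502). In the same 21-day spleen arrays the hepatocyte genes Alb and Apoa1 were called lower at -1.94 and -1.54, 2 of 5 tested hepatocyte markers. Of these 5, Serpina1a alone lay above 0, at 0.62 and 0.062. The pancreatic gene Ctrb1 was also called lower, at -1.93, 1 of 2 tested pancreas markers. The part of these cells in the Apex2 value was not tested.

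**Figure D4:**
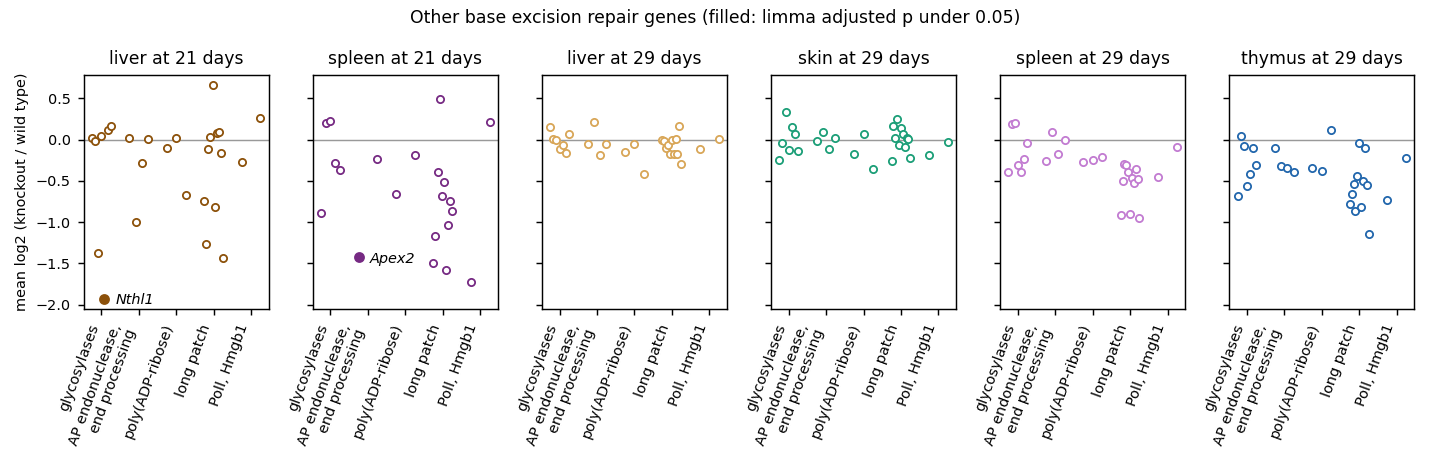
Mean log2 ratio of knockout over wild type (vertical axis) of the further genes of the pathway by role (horizontal axis) in the 6 groups (panels), with 1 point per gene, filled where limma's adjusted p was under 0.05. The genes lie near 0 in 29-day liver and skin, and the filled points are Nthl1 at -1.93 in 21-day liver and Apex2 at -1.42 in 21-day spleen.

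Taken as a whole, the 27 further genes resembled the members at 29 days. Their median was -0.055 in liver, -0.021 in skin, -0.31 in spleen and -0.40 in thymus, beside 0.0044, 0.064, -0.26 and -0.39 for the members. In 21-day liver it was -0.062 over 26 genes tested and in 21-day spleen -0.65 over 21, beside 0.039 and 0.060. None was called higher in any group. Of the 11 long-patch genes on the array, which also copy DNA in replication, 0 were called in any group, beside 0.0% to 4.13% of all features. Their medians were -0.80 in 21-day spleen, -0.48 in 29-day spleen and -0.55 in thymus, against 0.014 in skin. The proliferation markers were low on the same arrays, with group medians of -1.15, -0.71 and -0.97, and their part in these values was not tested.

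Within that long-patch group, Fen1, the flap endonuclease, was at -1.74 and -1.24 in 21-day spleen, and Rfc4, a subunit of the clamp loader, was at -1.85 and -0.44 in thymus. Pcna, the sliding clamp, was at 0.53 and -2.86 in 21-day spleen, on opposite sides of 0. Parp3, a relative of Parp1, was at -0.84 and -0.51 in 21-day liver and at -0.25 and -0.57 in 29-day liver, and neither mean passed (limma adjusted p = 0.086 and 1.0). Neil2, a relative of Neil1, was at -2.36 and -0.39 in 21-day liver, far apart between the arrays. Of these genes, Fen1, Rfc4, Parp3 and Neil2 lay below 0 on both arrays of each group named, Pcna did not, and none passed the test.

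Outside base excision repair, no gene of double-strand break repair (16 on the array), nucleotide excision repair (11) or mismatch repair (5) was called in any of the 6 groups. As 0.0% to 4.13% of all features were called per group, counts of 0 do not set these lists apart. In thymus their medians were -0.41, -0.18 and -0.30, beside -0.39 for the members. In 29-day skin they were -0.12, 0.099 and -0.073. Double-strand break repair had a median of -0.49 in 21-day spleen, where the members were at 0.060. The 2 arrays there differed for both lists. On replicates 6 and 11 the medians were -0.903 and -0.125 for double-strand break repair and -0.232 and 0.21 for the members.

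By the pattern over the 12 arrays, the named genes most like Ung were Galnt2 (r = 0.983), Mtmr12 (0.974) and Zfp574 (0.971), and those most like Mutyh were Slc35a1 (0.94), Hpcal1 (0.932) and Ythdf3 (0.909). These were the highest of 11218 genes compared, taken for the 2 members of smallest unadjusted p, and they describe these arrays alone.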

How the data were processed

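Gene expression was measured on 2-colour arrays, with 1 value for each of 38784 probes on 12 arrays. The authors deposited log2 ratios of knockout (Cy5) over wild type (Cy3), the dyes being per the labels; base 2 was inferred from the values, and the sources used here do not give their normalization. Per the labels' protocols, 15 ug of amplified RNA was labelled and knockout RNA was extracted with TRIzol. No dyes were exchanged. Without signal over background dim spots could not be left out, and the number of arrays limits the precision.

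Arrays were centred on their medians. Platform annotation named 1 gene for 22204 probes, several for 0 and none for 16580, and all 22204 were found in RefSeq's gene table (GRCm38.p6). Averaging the probes of each gene gave 31234 features, and 30871 were tested. A model of 6 group means was fitted to the 12 arrays with limma 3.58.1 (R 4.3.3, 6 residual and 3.57 prior degrees of freedom). Tests were two-sided and adjusted after Benjamini-Hochberg over all features tested, with significance at 0.05. Testing a group required values on both of its arrays and on both arrays of 2 or more further groups. Wild type RNA is the control of its array, so its own spread is left out. The labels do not say that the arrays of a group held different animals, so p-values measure the spread between arrays. At 21 days this spread may be technical. At 29 days Eif2s3y was at -0.13 to 0.37 on replicate 1 and 3.35 to 5.08 on replicate 2 arrays. The 2 arrays of a 29-day tissue thus did not hold the same pair of RNAs. Whether arrays with the same replicate number share animals is not given, and the main fit takes all 12 as independent. Replicate 2 of 21-day liver was numbered by order. The steps were tested on simulated data.

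The 10 members and the further gene lists were chosen with earlier results of these data known. Named genes are all members, listed genes that passed a test, Sirt6 and Eif2s3y as checks, and the 3 genes most like the 2 members of smallest p; others are named to state values. Alternatives were no centring, centring on 135 ribosomal and respiratory genes, scaling, quantile normalization, other probe summaries, no filter, arrays of the same age, a replicate block, robust eBayes, array weights and leaving out each array.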

Additional observations from a re-analysis of the deposited data

How the results depend on the processing

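The count of members called stayed at 0 in each of the 10 comparisons under every alternative run, except in 4 cases. Without replicate 11 of 21-day spleen, 2 members were called in 21-day spleen, Parp1 at 1.67 (limma adjusted p = 0.0199) and Ung at -0.69 (0.0425), and 1 for 29 minus 21 days in spleen, Parp1 at -2.28 (0.0219); these counts ranged from 0 to 2 and from 0 to 1 over the arrays left out in turn, and in that fit the lone array is taken to vary like the other groups. Leaving out replicate 6 of 21-day spleen and replicate 2 of 29-day spleen together, an alternative chosen after seeing the data, gave 1 call in 21-day liver (Ung, 0.53, adjusted p = 0.0371) and 1 in 21-day spleen (Neil1, adjusted p = 0.0396, on replicate 11 alone). The cause was not tested. Of 1915 recomputed values of the members, 1845 moved by less than a set limit, 66 moved by more, 4 were newly called, and 100 had the other sign. The limit was the model's SD between arrays for a group mean, and the SE for the mean of the 4 tissues or a difference of ages.

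No member was called with arrays of the same age alone, a fit in which the calls among all features were 0 in 21-day liver, against 738 in the joint fit, 0 in 21-day spleen, against 957, and 57, 43, 0 and 24 in 29-day liver, skin, spleen and thymus, against 32, 12, 0 and 4. The replicate numbers of the 29-day tissues are not said to pair the arrays, but Eif2s3y split by replicate number in all 4 tissues. The differences between replicates 2 and 1 correlated between -0.21 and 0.41 across tissues. With the replicate block 0 members were called in each of the 10 comparisons. The calls among all features were then 402 and 404 in 21-day liver and spleen and 25, 1, 0 and 1 at 29 days.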
